A study of Mus musculus with 44 samples.

Results

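The fibrillar collagens are the chains that assemble into the banded fibers of connective tissue, and their transcripts were followed here in fibroblasts sorted from mouse mammary glands and mammary tumors. The 10 members were taken as the lines of the deposited gene count table that carry the symbols Col1a1, Col1a2, Col3a1, Col5a1, Col5a2, Col5a3, Col11a1, Col11a2, Col24a1 and Col27a1, so 10 of 55486 genes in the table. Fibroblasts were isolated as EpCAM-/CD49f-/CD31-/CD45- cells from female En1-Cre;mTmG hosts, bred from En1-Cre mice and mTmG mice of FVB/n background, in which cells of the Engrailed-1 (En1) lineage switch from tdTomato to GFP, and were split by GFP and by CD26, the surface peptidase encoded by Dpp4. All hosts carried the same Cre and reporter alleles and had received small pieces of mammary tissue from donors 4 to 6 weeks old. The donors were of 3 kinds. Control tissue came from donors that lacked WapCre (Cdh1F/F;PtenF/F), WB1P tissue from WapCre;Brca1F/F;Trp53F/F donors, in which Brca1 and Trp53 are lost in mammary epithelium, and WB1P-Myc tissue from donors that also carried Col1a1 invCAG-Myc-IRES-Luc, a Myc and luciferase cassette placed at the Col1a1 locus. Whether any sorted fibroblast came from the donor tissue was not tested. Fibroblasts of control glands are called NFs and those of tumors CAFs. The 44 libraries came from 13 mice, numbered 1 to 3 for control, 4 to 8 for WB1P and 9 to 13 for WB1P-Myc. Mice 12 and 13 were labelled 8x8. The study uses that form for the size in millimetres of advanced tumors, whereas the series is described as holding end-stage tumors, and the table holds more WB1P-Myc mice than the study states, so the stage of these 2 mice is unsure. The age at collection is not given in the sources used here.

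Counts were summed over the En1+ and double- libraries of a mouse (CD26-) and over its CD26+ and double+ libraries (CD26+), which gave 25 sums: 3 control, 5 WB1P and 5 WB1P-Myc for CD26-, and 3, 4 and 5 for CD26+. A library held between 5790599 and 15240328 counts, with a median of 12818093. Of the 25 sums, 6 hold 1 library, namely the CD26- sums of mice 4, 9 and 11 and the CD26+ sums of mice 6, 10 and 11. Levels are given as CPM, the counts of a gene scaled to the total of all counts in a sum, and a gene was called changed at a false discovery rate (FDR) under 0.05 in edgeR's quasi-likelihood test over 16601 genes. The CD26 label was checked on its own transcript. Dpp4 stood at 5.28 ± 3.05 CPM in CD26- NFs and 546 ± 295 CPM in CD26+ NFs (SD, n = 3 each), at 4.94 ± 3.65 (n = 5) and 376 ± 115 CPM (n = 4) in WB1P CAFs, and at 8.61 ± 5.65 and 389 ± 101 CPM (n = 5 each) in WB1P-Myc CAFs. It was higher in the CD26+ class in all 12 mice that had both classes. The fibroblast label was checked on 8 markers (Pdgfra, Pdgfrb, Dcn, Lum, Thy1, Pdpn, Fap and Vim), whose summed level was 13398 ± 763 CPM in CD26- NFs, 10338 ± 745 in CD26+ NFs, 7936 ± 340 and 8922 ± 1045 in CD26- and CD26+ WB1P CAFs, and 9040 ± 1053 and 9156 ± 334 CPM in CD26- and CD26+ WB1P-Myc CAFs. This sum does not show that other cells were absent. Pericyte markers, listed further below, summed to 10557 CPM in CD26- cells of mouse 9, above its fibroblast sum of 8690.5 CPM. In the other CD26- CAF sums they stayed below the fibroblast sum. The names NF and CAF follow the sort.

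Control mouse 2 stood apart from the other controls. Its fibrillar collagen levels were the lowest of the 3 controls for Col1a1, Col1a2, Col3a1, Col5a1, Col5a2, Col5a3, Col11a1 and Col27a1 in both CD26 classes, and its proliferation markers (Mki67, Top2a, Cdk1, Ccnb1 and Birc5) summed to 5.33 CPM in CD26- and 3.69 CPM in CD26+ cells, against group means of 31.9 and 60.9 CPM. The members' called differences from control are given with and without it. The gene lists and markers were tested with all 3 controls only.

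Fibrillar collagen chains share a long triple helix, which is shorter and interrupted in the chains of Col24a1 and Col27a1, and carboxy-terminal propeptides through which chains select their partners. Type I collagen (Col1a1 and Col1a2) and type III collagen (Col3a1) make up most of the fiber mass of the mammary stroma, type V (Col5a1, Col5a2, Col5a3) and type XI (Col11a1, Col11a2) lie inside the fiber and set its diameter, and Col24a1 and Col27a1 encode minor chains known mainly from bone and cartilage. Chains are modified in the endoplasmic reticulum, trimmed outside the cell and crosslinked by lysyl oxidases, and activated fibroblasts of wounds and tumors are known for making them.

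The members lie on 8 chromosomes of the GRCm38 assembly. Col3a1 (chr1:45311538-45349706, plus strand) and Col5a2 (chr1:45374321-45503282, minus strand) are neighbors whose ends are 24614 bases apart. Col1a1 is at chr11:94936224-94953042, Col1a2 at chr6:4504814-4541544, Col5a1 at chr2:27886425-28039514, Col11a1 at chr3:114030540-114220718, Col11a2 at chr17:34039437-34066685, Col24a1 at chr3:145292472-145552011 and Col27a1 at chr4:63214004-63334991, all on the plus strand, and Col5a3 at chr9:20770050-20815067 on the minus strand. Genes annotated as overlapping a member held at most 115 counts in any sum, for Gm43921 within Col1a2, and the antisense gene 2810430I11Rik, which overlaps the start of Col5a1, at most 87.

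Promoters are shown for 5 members whose levels differed in different ways below, namely Col5a1, Col11a1 and Col24a1, which rose in CD26- WB1P CAFs, Col5a3, which fell in CD26+ WB1P-Myc CAFs, and Col3a1, which was higher in CD26+ than in CD26- CAFs. Each run is the 150 bases before the annotated start in RefSeq (GRCm38.p6), read 5′ to 3′ on the strand of the gene, and covers chr2:27886275-27886424 (plus), chr3:114030390-114030539 (plus), chr3:145292322-145292471 (plus), chr9:20815068-20815217 (minus) and chr1:45311388-45311537 (plus) in the order printed. Capitals mark matches to any of 4 motifs searched on both strands: the CAAT box CCAAT, the TATA box TATAAA, the GC box GGGCGG, and the Smad-binding element CAGAC.
Col5a1: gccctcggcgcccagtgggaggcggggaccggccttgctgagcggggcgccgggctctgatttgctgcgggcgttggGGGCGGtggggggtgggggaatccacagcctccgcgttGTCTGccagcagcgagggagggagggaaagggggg
Col11a1: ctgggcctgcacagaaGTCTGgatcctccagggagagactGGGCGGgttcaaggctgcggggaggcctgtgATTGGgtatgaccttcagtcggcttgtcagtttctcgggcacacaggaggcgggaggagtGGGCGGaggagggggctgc
Col24a1: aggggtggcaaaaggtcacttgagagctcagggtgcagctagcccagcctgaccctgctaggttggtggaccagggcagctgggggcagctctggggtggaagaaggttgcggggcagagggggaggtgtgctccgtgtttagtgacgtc
Col5a3: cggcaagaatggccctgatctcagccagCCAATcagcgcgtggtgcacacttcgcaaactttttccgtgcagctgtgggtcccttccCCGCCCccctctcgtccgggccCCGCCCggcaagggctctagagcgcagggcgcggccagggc
Col3a1: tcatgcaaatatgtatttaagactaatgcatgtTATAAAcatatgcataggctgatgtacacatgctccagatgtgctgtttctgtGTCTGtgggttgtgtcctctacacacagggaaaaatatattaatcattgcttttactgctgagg
The Col3a1 run holds TATAAA and CAGAC, and the Col24a1 run holds none of the 4 motifs. RefSeq promoters were matched for 8 of 10 members, all but Col1a1 and Col5a2. CCAAT occurred in 3 of these 8 (Col1a2, Col5a3, Col11a1) and in 24.5% of all 32851 promoter windows of that length, GGGCGG in 5 and 28.6%, CAGAC in 3 and 27.7%, and TATAAA in 2 (Col3a1, Col11a2) and 7.57%. A match describes letters only.

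Together the 10 genes took between 3.30% and 9.30% of all counts of a sum. In CD26- cells the share was 6.24%, 4.28% and 6.06% in control mice 1 to 3, 7.57%, 7.79%, 6.48%, 7.89% and 7.05% in WB1P mice 4 to 8, and 5.34%, 6.89%, 5.00%, 7.63% and 7.43% in WB1P-Myc mice 9 to 13. All 5 WB1P mice lay above all 3 controls, whereas 3 of 5 WB1P-Myc mice did and mice 9 and 11 lay within the control range. In CD26+ cells it was 6.34%, 3.30% and 5.52% in controls, 6.88%, 7.21%, 7.65% and 7.52% in WB1P mice 5 to 8, and 7.27%, 6.58%, 5.12%, 9.30% and 7.56% in WB1P-Myc mice, again with WB1P above every control and 1 WB1P-Myc mouse (mouse 11) within the control range. The group means were 5.53% ± 1.09 in CD26- and 5.05% ± 1.57 in CD26+ NFs (n = 3 each), 7.36% ± 0.58 (n = 5) and 7.31% ± 0.34 (n = 4) in WB1P CAFs, and 6.46% ± 1.21 and 7.17% ± 1.52 (n = 5 each) in WB1P-Myc CAFs. Without mouse 2 the control means became 6.15% and 5.93%. In these bulk samples, fewer cells of a type and less RNA per cell cannot be told apart.

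**Figure D1:**
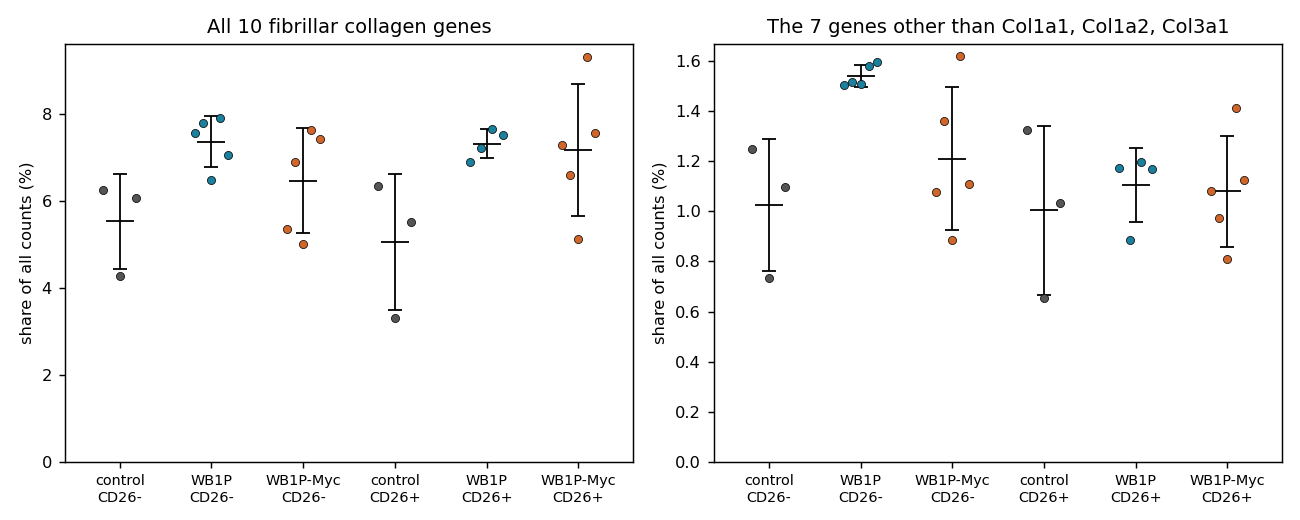
Share of all counts (percent, linear axis from 0) taken by the 10 fibrillar collagen genes (left) and by the 7 genes other than Col1a1, Col1a2 and Col3a1 (right), with 1 point per mouse in each donor group and CD26 class and bars for the mean ± SD. The 5 WB1P CD26- sums lie above all controls in both panels, and the lowest points in the left panel are those of control mouse 2, at 4.28% and 3.30%.

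Col1a1, Col1a2 and Col3a1 supplied most of this share, from 78.9% ± 1.75 of the member counts in CD26- WB1P CAFs to 84.9% ± 0.42 in CD26+ WB1P-Myc CAFs. The 7 other genes together held 1.03% of all counts in CD26- NFs and 1.54% in CD26- WB1P CAFs, and between 1.00% and 1.21% in the other 4 groups. Divided by transcript length, CD26- NFs held 3393 ± 577 CPM per kilobase of Col3a1, 2378 ± 400 of Col1a2, 2260 ± 497 of Col1a1, 629 ± 249 of Col5a2, 418 ± 29.6 of Col5a3, 380 ± 85.3 of Col5a1, 38.7 ± 11.2 of Col27a1, 4.87 ± 3.98 of Col11a1, 2.16 ± 0.23 of Col11a2 and 0.94 ± 0.25 of Col24a1 (SD, n = 3). In that order Col1a2 and Col1a1, and the 3 type V chains, did not differ beyond their spread. In CD26- WB1P CAFs the same scale gave 3889 ± 365 for Col1a1, 3503 ± 335 for Col1a2 and 2940 ± 372 for Col3a1 (n = 5), so that type I chains stood above Col3a1 there, while Col11a1 reached 73.3 ± 20.4 CPM per kilobase.

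**Figure D2:**
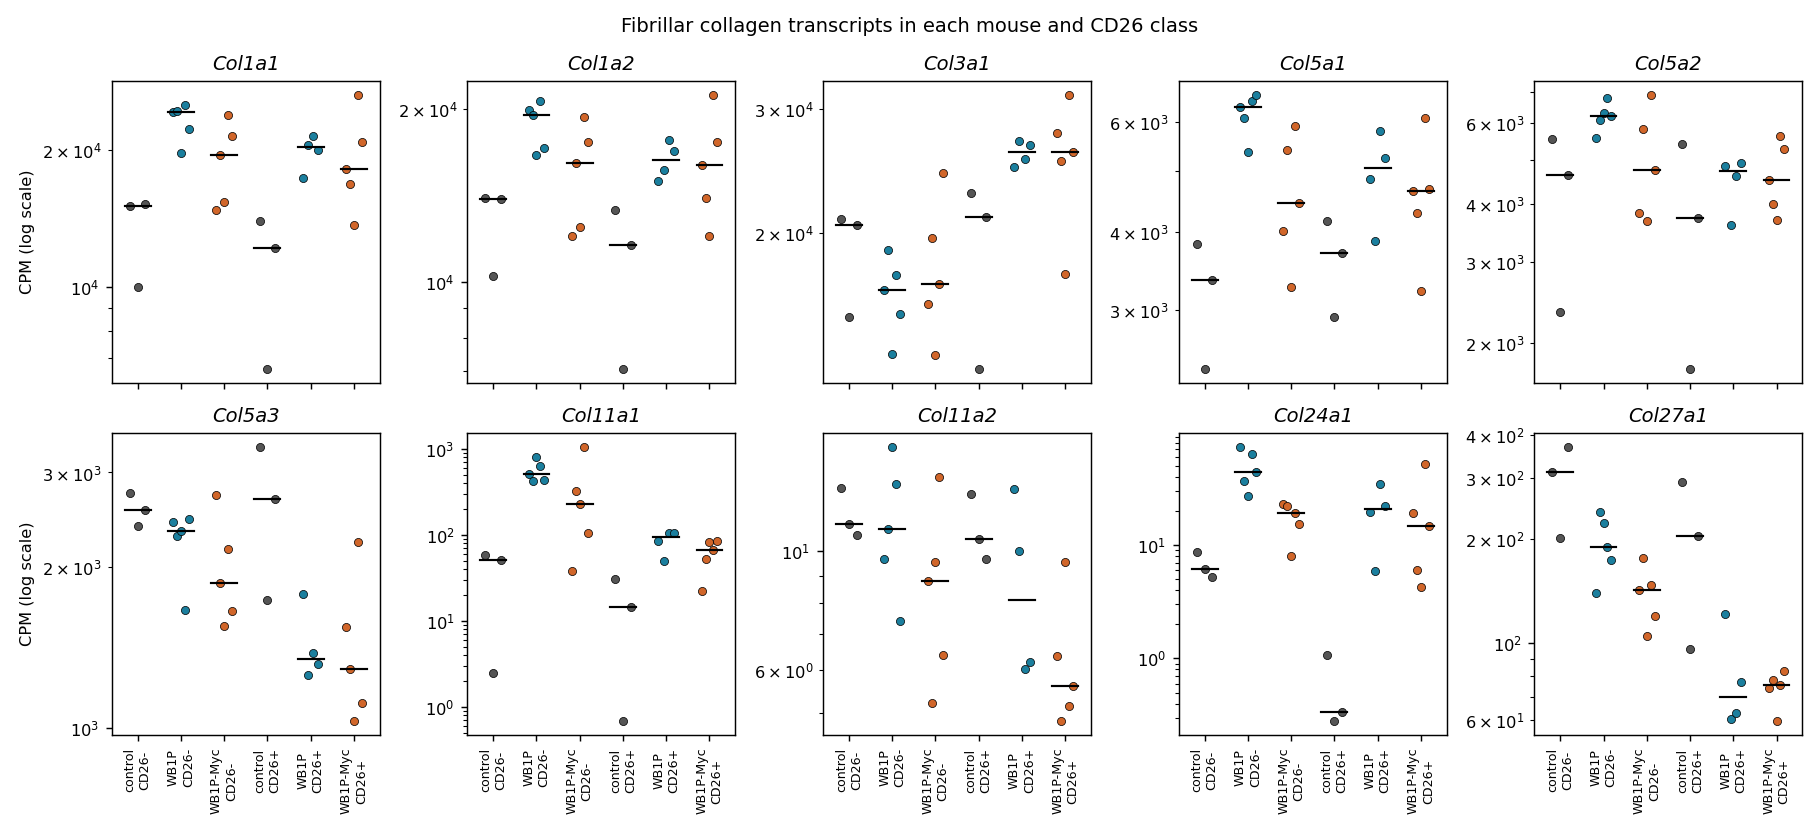
CPM of each of the 10 genes (log axes, a separate scale for each panel), with 1 point per mouse in each donor group and CD26 class and a line at the median. Col11a1 and Col24a1 span the widest ranges, from 2.49 to 1057 CPM for Col11a1 in CD26- cells, and the points of control mouse 2 are the lowest control points in 8 of the 10 panels.

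In tumors, the transcripts of type I collagen rose in both CD26 classes of WB1P CAFs, and Col5a1 rose in CD26- WB1P CAFs. The largest log2 fold changes were those of the minor chains Col11a1 and Col24a1. Of these, Col11a1 was not called in CD26+ CAFs, nor Col24a1 in CD26- WB1P-Myc CAFs. Col27a1 fell in CD26+ CAFs of both models and in CD26- WB1P-Myc CAFs. In CD26- WB1P CAFs 5 of 10 members were higher than in NFs (Col1a1, Col1a2, Col5a1, Col11a1, Col24a1) and 0 were lower, where 17.6% of the 16601 genes tested were called higher and 17.8% lower. In CD26- WB1P-Myc CAFs 1 member was higher (Col11a1) and 1 lower (Col27a1), beside 19.1% and 17.5% of all genes. In CD26+ WB1P CAFs 3 were higher (Col1a1, Col1a2, Col24a1) and 1 lower (Col27a1), beside 17.4% and 16.1%. In CD26+ WB1P-Myc CAFs the same 3 were higher and 2 were lower (Col5a3, Col27a1), beside 17.4% and 17.3%. At an unadjusted p under 0.05, 6, 4, 8 and 7 members differed in these 4 comparisons, in the order CD26- WB1P, CD26- WB1P-Myc, CD26+ WB1P and CD26+ WB1P-Myc, and DESeq2 called 5, 2, 7 and 5. The share of all genes at an unadjusted p was not counted, here or below, and those given above use a stricter threshold. DESeq2 called 3224 genes higher and 3343 lower of 20706, 3428 and 3314 of 19470, 3105 and 2995 of 18853, and 3014 and 3391 of 18853. The median log2 fold change over the 10 members was 0.69, 0.27, 0.63 and 0.48 in the same order, where the median over all genes tested lay between -0.01 and 0.02. The 4 comparisons use the same 3 control mice within a CD26 class.

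**Figure D3:**
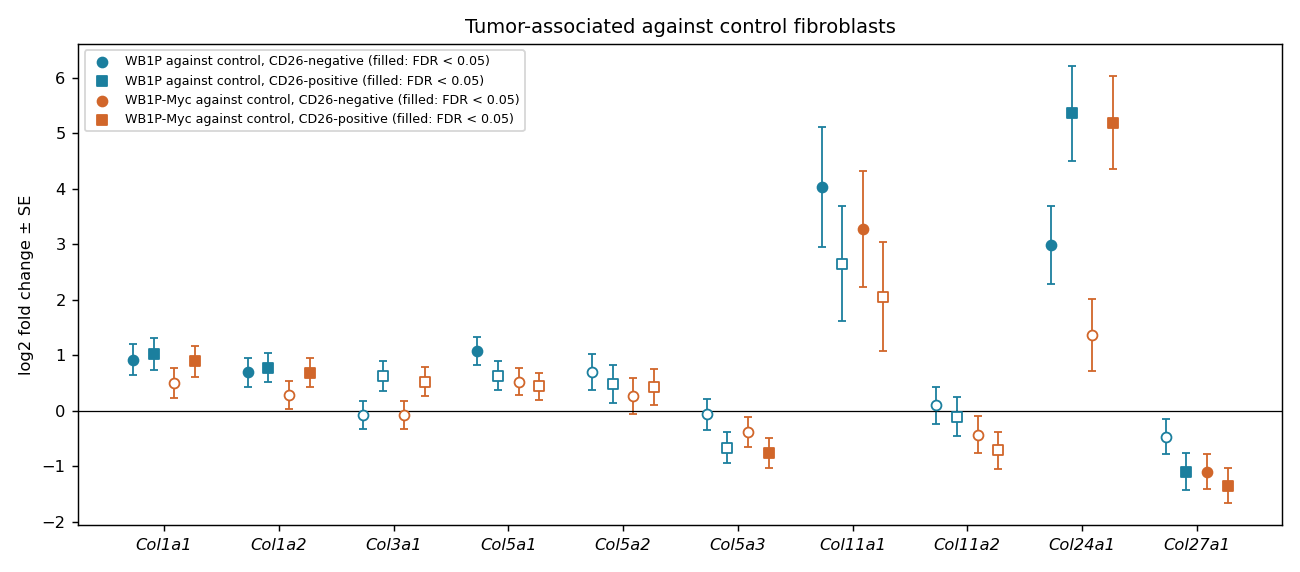
Log2 fold change ± SE of each gene between CAFs and NFs of the same CD26 class from edgeR's quasi-likelihood fit, circles for CD26- and squares for CD26+, blue for WB1P and orange for WB1P-Myc, filled at an FDR under 0.05. Filled points above 0 are at Col1a1, Col1a2, Col5a1, Col11a1 and Col24a1, and those below 0 at Col5a3 and Col27a1.

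Col1a1 encodes the chain that forms most of each type I collagen molecule. In CD26- cells it was at 15028, 9999 and 15177 CPM in control mice 1 to 3, at 24145, 24289, 19703, 25041 and 22130 CPM in WB1P mice, and at 14772, 19505, 15320, 23854 and 21401 CPM in WB1P-Myc mice. Every WB1P mouse was above every control, and 4 of 5 WB1P-Myc mice were, mouse 9 being the exception. The log2 fold change was 0.92 (SE 0.28, FDR 0.014) for WB1P and 0.50 (FDR 0.157, edgeR) for WB1P-Myc. In CD26+ cells it was at 13965, 6614 and 12201 CPM in controls, at 17314, 20507, 21404 and 19996 CPM in WB1P, and at 18168, 16849, 13642, 26354 and 20776 CPM in WB1P-Myc, with mouse 11 alone inside the control range. There the log2 fold changes were 1.02 (SE 0.29, FDR 0.0105) and 0.90 (SE 0.28, FDR 0.017). Without control mouse 2 the CD26- WB1P value was 0.76 (FDR 0.046), while the CD26+ values, 0.76 (FDR 0.0542) and 0.64 (FDR 0.0854), were no longer called. The rise in CD26+ WB1P-Myc CAFs was 0.65 (FDR 0.0977) without mice 12 and 13.

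Col1a2, the partner chain of type I collagen, ran closely parallel to Col1a1, with a Pearson r of 0.99 between their log2 CPM over the 25 sums, which share mice and depth. In CD26- cells its control values were 13984, 10246 and 13923 CPM, its WB1P values 19905, 19491, 16592, 20610 and 17070 CPM, and its WB1P-Myc values 12005, 16103, 12450, 19361 and 17463 CPM. WB1P lay above the controls without overlap (log2 fold change 0.69, SE 0.26, FDR 0.0408), and WB1P-Myc overlapped them (0.28, FDR 0.398, edgeR). It rose in CD26+ cells as well, by 0.78 (SE 0.27, FDR 0.0297) in WB1P and by 0.69 (SE 0.26, FDR 0.0432) in WB1P-Myc. These calls were close to the threshold: without mouse 2 the 3 values were 0.57 (FDR 0.117), 0.55 (FDR 0.141) and 0.47 (FDR 0.192), and over the 23 alternatives of each the FDR ran up to 0.117, 0.141 and 0.192.

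Col3a1 encodes the chain of type III collagen, which co-assembles with type I in soft tissue. CD26- cells held 20911, 15175 and 20547 CPM in controls, at 16590, 18926, 13471, 17436 and 15360 CPM in WB1P, and at 15854, 19692, 13395, 16911 and 24319 CPM in WB1P-Myc. The 3 groups overlapped, and the log2 fold change was -0.07 in WB1P and not called in either model. CD26+ cells held 22815, 12801 and 21084 CPM in controls, 24797, 27042, 25493 and 26637 CPM in WB1P, and 27726, 25262, 17468, 31412 and 26077 CPM in WB1P-Myc. The 4 WB1P mice were above all controls, with a log2 fold change of 0.63 that missed the threshold (FDR 0.0756, edgeR). With the mouse as a replicate block (limma voom) the value was 0.68 (FDR 0.0366), and over its 23 alternatives the FDR ran from 0.00264 to 0.284.

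The type V chains did not move together. Col5a1, the chain found in most type V molecules, was at 3822, 2414 and 3351 CPM in CD26- NFs, at 6317, 6073, 5372, 6479 and 6620 CPM in CD26- WB1P CAFs and at 4010, 5413, 3267, 5903 and 4453 CPM in CD26- WB1P-Myc CAFs. WB1P did not overlap the controls (log2 fold change 1.08, SE 0.25, FDR 0.00221), and 0.92 (FDR 0.019) remained without mouse 2. The WB1P-Myc value was 0.53 (FDR 0.0981, edgeR). CD26+ cells held 4167, 2927 and 3705 CPM in controls and 4861, 3871, 5791 and 5252 CPM in WB1P, where 3 of 4 mice exceeded every control. That difference of 0.63 missed the threshold (FDR 0.0617, edgeR) and passed with the replicate block (0.61, FDR 0.0475), the 23 alternatives spanning an FDR of 0.000564 to 0.199. CD26+ WB1P-Myc CAFs held 4652, 4292, 3224, 6067 and 4682 CPM, with mouse 11 inside the control range. Their log2 fold change of 0.44 was not called (FDR 0.169, edgeR), nor was that of 0.41 with the block (FDR 0.156).

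Col5a2, the usual partner of Col5a1, was at 5536, 2336 and 4626 CPM in CD26- NFs and at 5558, 6086, 6321, 6782 and 6206 CPM in CD26- WB1P CAFs. The groups did not overlap, but the gap between mouse 1 and mouse 4 was narrow, and the log2 fold change of 0.70 was not called (FDR 0.104, edgeR). Without control mouse 2 it was 0.43 (FDR 0.294), and without control mouse 1 it was 1.00 (FDR 0.0317). Its other tumor groups overlapped the controls.

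Col5a3, a type V chain with a narrower tissue distribution, went the other way. In CD26+ cells it was at 3348, 1730 and 2677 CPM in controls, at 1778, 1253, 1377 and 1314 CPM in WB1P, and at 1540, 1285, 1027, 2227 and 1113 CPM in WB1P-Myc. Of the 9 CD26+ CAF sums 7 lay below every control, the exceptions being mice 5 and 12, which were above control mouse 2. It fell in WB1P-Myc (log2 fold change -0.76, SE 0.27, FDR 0.033), and in WB1P the value was -0.67 (FDR 0.0724, edgeR). Without mouse 2 they were -0.97 (FDR 0.0175) and -0.89 (FDR 0.0354), and without mouse 1 the WB1P-Myc value was -0.47 (FDR 0.238). The WB1P-Myc call was lost in 9 of its 23 alternatives, among them those without mouse 1, 3, 10, 11 or 13. In CD26- cells the levels were 2741, 2378 and 2555 CPM in controls against 1658 to 2460 CPM in WB1P and 1548 to 2718 CPM in WB1P-Myc, with neither difference called.

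Col11a1 encodes a type XI chain known from cartilage and from the stroma of carcinomas. In CD26- cells it was at 58.9, 2.49 and 50.7 CPM in control mice 1 to 3, at 509, 423, 798, 637 and 442 CPM in WB1P mice 4 to 8, and at 37.6, 322, 230, 1057 and 105 CPM in WB1P-Myc mice 9 to 13. All WB1P mice were far above the controls, and the WB1P-Myc mice were the most scattered group, with mouse 9 inside the control range. The log2 fold change was 4.03 (SE 1.09, FDR 0.00624) in WB1P and 3.27 (SE 1.04, FDR 0.0177) in WB1P-Myc, and 3.50 (FDR 0.00947) and 2.74 (FDR 0.028) without control mouse 2, in which the 4 libraries held 34, 8, 9 and 29 counts of Col11a1. The WB1P-Myc call was lost without mouse 3 (3.53, FDR 0.0544), mouse 12 (FDR 0.0692) or mice 12 and 13 together (2.37, FDR 0.0839). The WB1P-Myc log2 fold change lay between 2.2 and 3.83 over its 23 alternatives.

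In CD26+ cells Col11a1 was at 30.7, 0.675 and 14.5 CPM in controls, at 86.0, 49.9, 104 and 106 CPM in WB1P and at 22.4, 52.6, 82.0, 66.2 and 86.0 CPM in WB1P-Myc. Every tumor mouse but mouse 9 exceeded all controls. The log2 fold changes of 2.65 (FDR 0.0512) and 2.05 (FDR 0.106) were not called by edgeR, were 2.10 (FDR 0.0854) and 1.51 (FDR 0.183) without control mouse 2, and were 3.80 (FDR 0.0136) and 3.11 (FDR 0.0303) with the replicate block (limma voom). Over the 23 alternatives of each, the FDR ran from 0.00137 to 0.145 and from 0.0111 to 0.231. Col11a2, the partner chain of Col11a1 in cartilage, was at 4.82 to 15.6 CPM in all 25 sums, with none of the 4 comparisons called. In CD26+ cells it was at 12.7, 10.5 and 9.66 CPM in controls and at 6.37, 4.82, 9.54, 5.14 and 5.62 CPM in WB1P-Myc, without overlap and with mouse 11 next to the controls (log2 fold change -0.71, FDR 0.0966, edgeR).

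Col24a1 had the largest log2 fold changes of the family in CD26+ CAFs, over very low control counts, while in CD26- CAFs those of Col11a1 were larger in both models. In CD26+ NFs it was nearly silent, at 1.07, 0.278 and 0.339 CPM, that is 28, 7 and 10 counts per mouse, whereas CD26+ CAFs held 19.5, 5.87, 34.5 and 22.3 CPM in WB1P and 19.0, 6.01, 4.30, 51.3 and 14.7 CPM in WB1P-Myc. No tumor mouse overlapped the controls. The log2 fold changes were 5.36 (SE 0.85, FDR 0.000113) and 5.19 (SE 0.84, FDR 0.000131), and 5.05 (FDR 0.00177) and 4.88 (FDR 0.00203) without mouse 2, and both were called under all 23 alternatives run on each. In CD26- cells the levels were 8.69, 6.20 and 5.19 CPM in controls, 73.1, 36.9, 26.9, 63.8 and 44.3 CPM in WB1P and 22.8, 21.9, 7.96, 19.0 and 15.2 CPM in WB1P-Myc. There it rose in WB1P (log2 fold change 2.98, SE 0.70, FDR 0.00214, and 2.94, FDR 0.0147, without mouse 2), while mouse 11 reached into the control range in WB1P-Myc (1.36, FDR 0.101, edgeR).

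Col27a1 fell in 3 of the 4 comparisons with NFs. CD26- cells held 313, 201 and 369 CPM in controls, 139, 239, 223, 189 and 174 CPM in WB1P, and 142, 177, 105, 147 and 119 CPM in WB1P-Myc. In WB1P the log2 fold change was -0.47 (SE 0.32, FDR 0.262, edgeR), which was not called. Only the WB1P-Myc mice were all below the controls (log2 fold change -1.097, SE 0.32, FDR 0.00957), the value being -1.30 (FDR 0.00268) without mouse 2 and -0.92 (FDR 0.0665), no longer called, without mouse 3. CD26+ cells held 293, 96.1 and 204 CPM in controls, 121, 60.1, 62.8 and 76.9 CPM in WB1P, and 74.0, 77.9, 59.3, 75.6 and 83.2 CPM in WB1P-Myc. The values were -1.09 (SE 0.33, FDR 0.0157) in WB1P and -1.35 (SE 0.32, FDR 0.0028) in WB1P-Myc, and -1.42 (FDR 0.00264) and -1.67 (FDR 0.00051) without mouse 2. The WB1P value was -0.65 (FDR 0.166) without control mouse 1.

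The balance between chains shifted as well. Counts of Col3a1 per count of Col1a1, each divided by transcript length, averaged 1.51 ± 0.09 in CD26- NFs, 0.755 ± 0.043 in CD26- WB1P CAFs and 1.02 ± 0.18 in CD26- WB1P-Myc CAFs, and 1.88 ± 0.16, 1.41 ± 0.11 and 1.44 ± 0.16 in the CD26+ groups. On the log2 scale, with the counts not divided by length, the 10 tumor mice were 0.79 lower than the 3 controls in CD26- cells (mean -0.29 ± 0.29 against 0.51 ± 0.09) and the 9 tumor mice 0.40 lower in CD26+ cells, without overlap in either class (p = 0.00699 and 0.00909, 2-sided exact permutation, the smallest these designs allow, adjusted p = 0.0136 over 12 ratio tests). Col5a3 per count of Col5a1, by length, went from 1.13 ± 0.20 in CD26- NFs to 0.500 ± 0.090 in WB1P and 0.613 ± 0.191 in WB1P-Myc, and from 0.970 ± 0.147 in CD26+ NFs to 0.404 ± 0.084 and 0.427 ± 0.066. The log2 differences of 1.05 and 1.22, both lower in tumors, had the same p-values. Col1a2 per count of Col1a1, by length, was 1.062 ± 0.065 in CD26- NFs and 1.097 ± 0.074 in CD26+ NFs, and lay between 0.901 and 0.940 in the 4 CAF groups, a log2 difference of 0.23 and 0.24 lower with those same p-values. Col5a2 per count of Col5a1 was not shown to differ (log2 difference -0.26, p = 0.0629, and 0.07, p = 0.664, exact permutation). Without control mouse 2 the differences of Col3a1, Col5a3 and Col1a2 kept their direction, each with an adjusted p of 0.0485 (exact permutation), and that of Col5a2 in CD26- cells was -0.44 with the same adjusted p. With control mouse 1 or 3 left out instead, those of Col3a1, Col5a3 and Col1a2 had an adjusted p of 0.0545 (exact permutation). The tumor groups pool both models against 3 controls, since either model alone cannot pass the adjusted threshold.

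**Figure D4:**
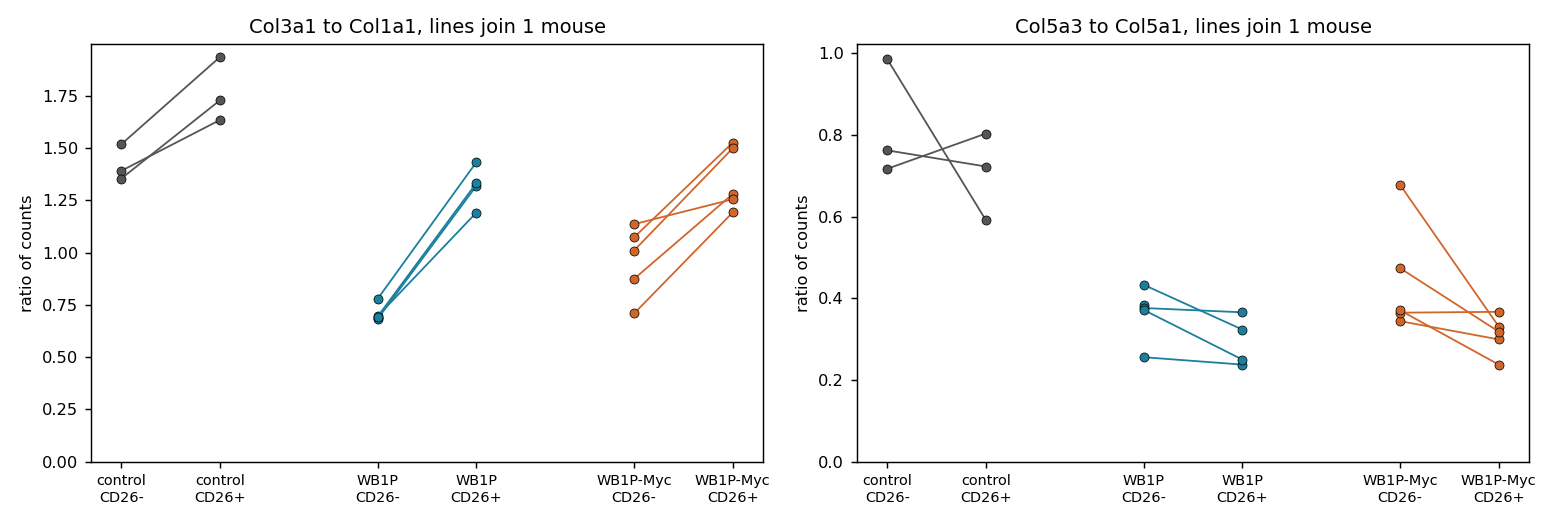
Ratio of counts of Col3a1 to Col1a1 (left) and of Col5a3 to Col5a1 (right), not divided by length, on linear axes from 0, with 1 point per mouse and CD26 class and a line joining the classes of a mouse. The control points lie above the tumor points of the same class in both panels, and the Col3a1 line rises from CD26- to CD26+ in all 12 mice with both classes.

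Between the CD26 classes, Col3a1 was higher in CD26+ CAFs and Col11a1 was lower. In control mice 0 of 10 members were higher and 1 lower in CD26+ cells (Col24a1), beside 2.67% and 1.49% of all genes tested. In WB1P 3 differed, Col3a1 being higher and Col11a1 and Col27a1 lower, beside 26.0% of all genes called in either direction, and in WB1P-Myc 1 was higher (Col3a1) and 1 lower (Col11a1), beside 9.29% and 10.7%. The counts in both tumor models were close to these shares of all genes. At an unadjusted p under 0.05 and by DESeq2 the numbers were 1 in control, 3 in WB1P and 3 in WB1P-Myc, the last with Col27a1 as well. Over all genes DESeq2 called 568 higher and 414 lower of 18239 in control. In WB1P it called 2219 and 2445 of 19470, and in WB1P-Myc 1604 and 2142 of 20088. Col3a1 was higher in the CD26+ class in 9 of 9 tumor mice with both classes, by 0.78 on the log2 scale in WB1P (SE 0.23, FDR 0.0168) and 0.68 in WB1P-Myc (SE 0.22, FDR 0.0342). In the 3 control mice it was higher in 2 and lower in 1. Col11a1 was lower in 9 of 9 tumor mice, by -2.57 (SE 0.89, FDR 0.0362) and -2.41 (SE 0.81, FDR 0.0389), and Col27a1 in 9 of 9, by -1.11 in WB1P (SE 0.30, FDR 0.00908) and -0.74 in WB1P-Myc (FDR 0.0685, edgeR). In the 3 control mice both were also lower in CD26+ cells, with log2 ratios within a mouse of -1.88 to -0.94 for Col11a1 and -1.07 to -0.10 for Col27a1, without being called, and neither class difference was shown to differ between tumor and control mice. The same holds for Col3a1, whose class difference exceeded that of controls by 0.70 (FDR 0.429) in WB1P and 0.60 (FDR 0.68) in WB1P-Myc, by edgeR. Within a mouse, Col3a1 per count of Col1a1 was 0.67 higher on the log2 scale in the CD26+ class of the 9 tumor mice (p = 0.00391, exact sign-flip permutation, adjusted p = 0.0136), and Col5a3 per count of Col5a1 was 0.40 lower (p = 0.00781, adjusted p = 0.0136).

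The 2 classes of a mouse are paired, and the fit with the mouse as a replicate block gave Col3a1 at 0.79 (FDR 0.0093) in WB1P and 0.68 (FDR 0.0124) in WB1P-Myc, Col11a1 at -2.60 (FDR 0.00204) and -1.62 (FDR 0.0217), and Col27a1 at -1.29 (FDR 0.00027) and -0.71 (FDR 0.00687). Col5a3 (-0.50, FDR 0.04) and Col24a1 (-1.06, FDR 0.0489) were called in WB1P with the block as well. Over their alternatives, run with edgeR, limma and DESeq2, the FDR of Col27a1 in WB1P-Myc ran from 0.00427 to 0.211, with DESeq2, the fit on single libraries and the fit of only the groups compared among those that called it, and those of Col5a3 and Col24a1 in WB1P from 0.0285 to 0.383 and from 0.0427 to 0.613. In the fit without the block, several calls were lost when 1 mouse was left out, while the differences in WB1P stayed between 0.71 and 0.83 for Col3a1, between -2.77 and -2.22 for Col11a1 and between -1.37 and -0.93 for Col27a1. These were lost without mouse 6 or 8 for Col3a1 (FDR 0.0743 and 0.0703), without any of mice 5 to 8 for Col11a1 (FDR 0.0716 to 0.146) and without mouse 6 or 7 for Col27a1 (FDR 0.0605 and 0.0527). In WB1P-Myc the Col3a1 difference lay between 0.55 and 0.81 and was not called without mouse 8, 9 or 12 (FDR 0.0504, 0.178 and 0.148). The Col11a1 difference there was -1.38 (FDR 0.298) without mouse 12, and its call was also lost without any of mice 3, 7, 8, 9, 10 and 11 (FDR 0.0501 to 0.0888).

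In the controls Col24a1 was lower in CD26+ cells in all 3 mice (log2 fold change -3.49, SE 0.83, FDR 0.0159), a call lost without the block when mouse 2 (-3.23, FDR 0.159) or mouse 3 (-3.38, FDR 0.149) was left out. It was also lower in CD26+ cells in 4 of 4 WB1P mice, with log2 ratios of -2.19 to -0.89, and in 4 of 5 WB1P-Myc mice, although the classes overlapped between mice. The fitted class difference in WB1P-Myc was 0.34 (FDR 0.727, edgeR), and -0.08 with the replicate block, neither of them called. The difference between the class effects of WB1P-Myc and control was 3.82 (SE 0.98, FDR 0.0567) and that of WB1P and control 2.37 (FDR 0.268), neither called by edgeR. The first was called with the replicate block (3.49, FDR 0.0169), and its FDR ran from 8.08e-05 to 0.285 over 22 alternatives. In these tests of class effects 0 members were called in each of the 3 comparisons of groups, where 1.86%, 1.16% and 0% of all genes were called for WB1P against control, WB1P-Myc against control and WB1P-Myc against WB1P. At an unadjusted p under 0.05, 1, 1 and 0 members differed, and DESeq2 called 0, 1 and 0. Over all genes DESeq2 called 264 higher and 391 lower of 15167, 117 and 292 of 17011, and 1 and 1 of 31826.

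WB1P-Myc against WB1P gave 0 called members in CD26- cells, where 0.512% of all genes were called, and 0 in CD26+ cells, where 0% were, so that a count of 0 of 10 lies at the background. At an unadjusted p under 0.05, Col5a1, Col24a1 and Col27a1 were lower in CD26- WB1P-Myc CAFs and 0 members differed in CD26+ CAFs, and DESeq2 called 0 in both. Col24a1 had the largest of these differences, -1.62 (FDR 0.165), and its 5 WB1P-Myc values lay below the 5 WB1P values. The En1 lineage also gave 0 called members, over 44 libraries and 15584 genes, in CD26- cells (0.00642% of all genes called) and in CD26+ cells (0.0128%). At an unadjusted p under 0.05 and by DESeq2 the number was 0 as well. With the replicate block the member with the lowest FDR between the lineages was Col5a1 in CD26- cells (log2 fold change 0.16, SE 0.067, FDR 0.548). Without the block, the En1 transcript itself was higher in En1-lineage libraries of CD26- cells by 0.95 (SE 0.26, FDR 0.395, edgeR). In CD26+ cells it was higher by 0.87 (SE 0.27), and neither difference was called.

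The other genes of collagen production and turnover were counted in 6 lists, beside all genes tested, of which 17.4% to 19.1% were called higher and 16.1% to 17.8% lower in the 4 comparisons of CAFs with NFs. No list was tested against other genes. Of 19 genes for chain processing in the endoplasmic reticulum (prolyl and lysyl hydroxylases, prolyl isomerases, glycosyltransferases and the chaperone Serpinh1), 13 rose and 0 fell in CD26- WB1P CAFs, 6 and 0 in CD26- WB1P-Myc, 15 and 0 in CD26+ WB1P and 13 and 0 in CD26+ WB1P-Myc. P4ha3, a prolyl 4-hydroxylase subunit, went from 13.4 ± 3.9 to 283 ± 55 CPM between NFs and WB1P CAFs of the CD26- class (log2 fold change 4.53, FDR 8.85e-11) and from 22.3 ± 6.9 to 269 ± 38 CPM in the CD26+ classes. Plod2, the lysyl hydroxylase of the telopeptides, went from 142 ± 43 to 402 ± 51 CPM between NFs and WB1P CAFs of the CD26+ class (FDR 0.000184). Between CD26 classes, where the shares of all genes are those given above for control and WB1P-Myc and 2162 genes were higher and 2150 lower of 16601 in WB1P, this list held 1 higher and 0 lower gene in control, 1 and 1 in WB1P, and 2 and 1 in WB1P-Myc.

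Of 13 genes for cleavage of procollagen and crosslinking, 7 rose and 1 fell in CD26- WB1P and in CD26- WB1P-Myc CAFs, 7 and 0 did in CD26+ WB1P and 6 and 1 in CD26+ WB1P-Myc. Lox, a lysyl oxidase, was at 409 ± 135 CPM in CD26+ NFs, 3825 ± 788 CPM in CD26+ WB1P CAFs (FDR 1.51e-07) and 3407 ± 550 CPM in CD26+ WB1P-Myc CAFs, and at 644 ± 79 and 1958 ± 338 CPM in CD26- NFs and WB1P CAFs. Loxl3 went from 124 ± 21 to 819 ± 157 CPM in CD26- WB1P. Tll1, a procollagen C-proteinase, was the only gene of the 6 pathway lists that differed between the models, at 5.45 ± 1.80 CPM in CD26- WB1P-Myc and 17.9 ± 3.1 CPM in CD26- WB1P CAFs (log2 fold change -1.84, FDR 0.0299). Between classes 2 genes of this list were higher and 0 lower in CD26+ NFs, 5 and 2 in WB1P and 5 and 1 in WB1P-Myc, among them Pcolce2, an enhancer of that proteinase, at 211 ± 30 against 43.1 ± 18.6 CPM in WB1P.

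Of 18 proteins that bind the fiber, 7 rose and 4 fell in CD26- WB1P CAFs, 4 and 3 in CD26- WB1P-Myc, and 8 and 0 in CD26+ CAFs of either model. The 4 and 3 of CD26- WB1P-Myc were close to the shares of all genes, 19.1% and 17.5%. Col12a1, a collagen that coats fibers, rose from 356 ± 256 to 10146 ± 1699 CPM in CD26- WB1P CAFs (log2 fold change 4.95, FDR 6.03e-06) and from 455 ± 286 to 3365 ± 744 CPM in CD26+ WB1P CAFs. Dcn, a small proteoglycan that regulates fibers and is also among the fibroblast markers, fell from 4921 ± 1336 to 982 ± 410 CPM in CD26- WB1P CAFs (log2 fold change -2.17, FDR 3.19e-05). Between classes 2 were higher and 1 lower in CD26+ NFs, 5 and 4 in WB1P and 7 and 1 in WB1P-Myc, with Ogn at 689 ± 214 CPM in CD26+ and 69.0 ± 33.8 CPM in CD26- WB1P CAFs.

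Of 10 collagen receptors, 9 were tested, and 7 rose and 1 fell in CD26- WB1P, 4 and 1 in CD26- WB1P-Myc, 2 and 1 in CD26+ WB1P and 2 and 2 in CD26+ WB1P-Myc CAFs. Itga1, a subunit of a collagen-binding integrin, was at 25.8 ± 6.7 CPM in CD26- NFs and 464 ± 186 CPM in CD26- WB1P CAFs (FDR 3.07e-07), and 18.5 ± 5.9 CPM in CD26+ WB1P CAFs. Ddr2, a receptor tyrosine kinase for fibrillar collagen, fell in CD26+ CAFs, from 1479 ± 324 CPM to 642 ± 239 in WB1P (FDR 0.0115) and 636 ± 108 in WB1P-Myc (FDR 0.00357). Of 10 collagen-cleaving proteases and inhibitors, 3 rose in CD26- WB1P, CD26- WB1P-Myc and CD26+ WB1P CAFs and 4 in CD26+ WB1P-Myc, and 0 fell. Mmp13, a collagenase, went from 0.958 ± 0.783 to 1659 ± 1228 CPM in CD26- WB1P (FDR 6.54e-06). Of 14 inducers and regulators, 7 rose and 1 fell in CD26- WB1P, 7 and 2 in CD26- WB1P-Myc, 4 and 1 in CD26+ WB1P and 3 and 1 in CD26+ WB1P-Myc. Ccn2, a matricellular protein induced by TGF-beta, rose from 33.7 ± 8.7 to 837 ± 178 CPM in CD26- WB1P (FDR 2.33e-06). Between classes, receptors counted 2 higher and 0 lower in control, 2 and 3 in WB1P and 2 and 2 in WB1P-Myc, proteases 1 and 0, 1 and 2, and 2 and 1, and inducers 1 and 0, 1 and 4, and 2 and 3.

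Across the 25 sums, the genes whose log2 CPM followed Col1a1 most closely among 8878 genes of at least 10 CPM on average were Sparc (r = 0.94), Fkbp10, Colgalt1, Ikbip and P3h1. Those most like Col5a3 were Rps6ka2 (r = 0.85), Ccdc186, Rcor1, Fzd5 and Ap1g1, and those most like Col11a1 were Kif26b (r = 0.97), Fut4, Ccn4, Unc5c and Tagln. Col5a3 and Col27a1 had an r of 0.80 with each other, whereas Col1a1 had an r of 0.54 with Col3a1 and -0.01 with Col5a3. The sums share mice and depth, and these values are descriptions.

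Markers of other cell types moved with some of these groups. All 7 pericyte markers (Rgs5, Cspg4, Mcam, Notch3, Kcnj8, Abcc9, Higd1b) rose in the CD26- CAFs of both models, their sum being 282 ± 103 CPM in CD26- NFs, 2816 ± 1453 in WB1P and 5100 ± 3180 in WB1P-Myc, against 183 ± 19, 229 ± 72 and 234 ± 69 CPM in the CD26+ groups. Rgs5 was the most abundant in both CD26- CAF groups, at 1018 ± 716 CPM in CD26- WB1P and 2292 ± 1459 in CD26- WB1P-Myc. All 6 smooth muscle markers (Acta2, Myh11, Tagln, Des, Cnn1, Lmod1) rose there too, summing to 196 ± 69, 2032 ± 460 and 1895 ± 556 CPM in CD26- control, WB1P and WB1P-Myc and to 98.1 ± 81.6, 324 ± 105 and 319 ± 149 CPM in CD26+, with Acta2 the most abundant in all groups but CD26+ NFs. The smooth muscle sums of CD26+ NFs were 180, 16.7 and 97.8 CPM in mice 1 to 3. The part of pericytes or smooth muscle cells in the collagen values of CD26- CAFs was not tested. In CD26- cells of WB1P-Myc mice 9 to 13, Col11a1 was at 37.6, 322, 230, 1057 and 105 CPM. Their pericyte sums were 10557, 3230, 4854, 4304 and 2554 CPM, and their smooth muscle sums 2140, 1881, 2118, 2382 and 952 CPM. In CD26- cells of WB1P mice 4 to 8, Col11a1 was at 509, 423, 798, 637 and 442 CPM. Pericyte sums there were 5320, 1815, 2402, 1823 and 2722 CPM, and smooth muscle sums 1968, 1429, 1898, 2162 and 2699.5 CPM. The CD26- values of mice 4, 9 and 11 rest on 1 library each. Tagln, 1 of the smooth muscle markers, was among the genes most like Col11a1 over all sums (r = 0.93).

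**Figure D5:**
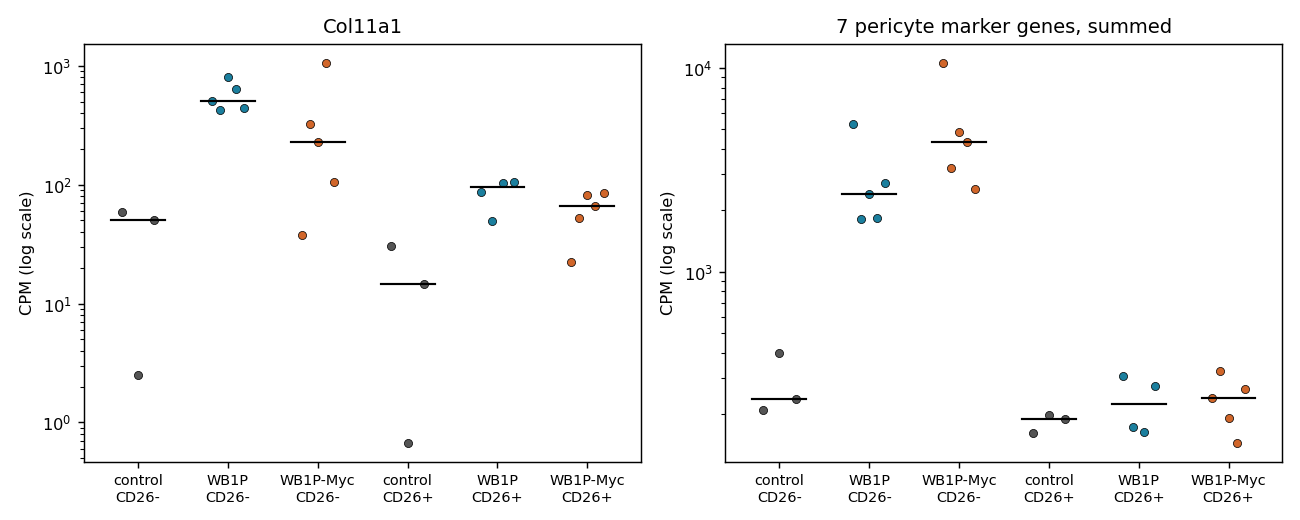
Col11a1 (left) and the sum of 7 pericyte marker genes (right) in CPM on log axes, with 1 point per mouse in each donor group and CD26 class and a line at the median. The pericyte sum is high in CD26- CAFs, between 1815 and 10557 CPM, and at most 325 CPM in CD26+ CAFs. Col11a1 lies between 37.6 and 1057 CPM in CD26- CAFs.

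Cartilage and bone markers, chosen because Col11a1, Col11a2, Col24a1 and Col27a1 are known from those tissues, summed to 21.5 ± 7.0, 118 ± 155 and 58.5 ± 41.7 CPM in CD26- control, WB1P and WB1P-Myc and to 9.90 ± 1.53, 36.2 ± 7.6 and 17.80 ± 15.18 CPM in CD26+. The CD26- WB1P mean owed most to mouse 4 (392 CPM), and Alpl was its most abundant gene (57.9 ± 119 CPM). Comp and Acan, cartilage matrix genes, rose in CD26- WB1P (FDR 0.0333 and 0.0275), where Col2a1, the defining cartilage collagen, was at 4.70 CPM, Matn1 at 0.00768 CPM and Bglap at 0.0386 CPM. In CD26- control, WB1P and WB1P-Myc and then in CD26+, epithelial markers summed to 47.9, 98.8 and 63.5 and to 66.0, 81.4 and 27.1 CPM, immune markers to 23.4, 32.3 and 56.6 and to 25.9, 75.9 and 85.7 CPM, endothelial markers to 50.8, 19.9 and 43.2 and to 58.9, 27.3 and 23.3 CPM, Schwann cell markers to 24.6, 17.0 and 31.8 and to 40.8, 18.9 and 19.6 CPM, and adipocyte markers to 98.5, 39.5 and 95.1 and to 66.7, 7.71 and 24.98 CPM. Single mice carried some of the CD26+ WB1P-Myc means: mouse 12 held 233 CPM of immune markers against 22.9 to 84.9 in the other 4, mouse 11 held 72.5 CPM of epithelial markers against 4.79 to 29.2, and mouse 13 held 43.5 CPM of cartilage and bone markers against 5.49 to 16.8. Of 7 endothelial markers 5 fell in CD26- WB1P and in CD26+ CAFs of both models, and of 5 adipocyte markers 2 fell in every comparison but CD26+ WB1P-Myc, where 1 did. All 5 proliferation markers rose in each of the 4 comparisons of CAFs with NFs, their sum going from 31.9 ± 23.5 to 202 ± 85 (WB1P) and 335 ± 81 CPM (WB1P-Myc) in CD26- and from 60.9 ± 50.5 to 231 ± 96 and 258 ± 105 CPM in CD26+ cells. The part of cell division in the collagen differences was not tested.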

How the data were processed

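RNA of sorted fibroblasts was sequenced as stranded polyA mRNA libraries. Per the labels and the submitters' processing notes the authors aligned reads with HISAT2 (2.2.1) to GRCm38. The counting program, its strand setting and the annotation are not given in the sources used here. The authors deposited whole-number counts per gene, not normalized, in 1 table (55486 genes, and 1 line without a gene and with 0 counts). Counts were summed per mouse and CD26 class (25 sums). Control libraries labelled with pairs of numbers were taken as 1 mouse each, as the study counts its control mice; the labels do not explain the pairs. The expression of the 10 members was tested with edgeR 4.0.16 (R 4.3.3, quasi-likelihood F-test, TMM, filterByExpr, 6 groups, Benjamini-Hochberg over 16601 genes). The test was also run on simulated counts for some of the comparisons. These were drawn without correlation within a mouse, so they do not check the tests between classes of the same mice. CPM are counts scaled to the total of a sum; log2 CPM for correlations used a prior count of 2. Lengths are those of the longest principal transcript in GENCODE M21. En1 was tested over 44 libraries in 12 groups, without the mouse as a term. With the replicate block 4 genes were higher and 28 lower in CD26- cells, in place of 1 and 0, and 3 higher and 3 lower in CD26+ cells, in place of 2 and 0, none of them a member. Ratios were tested by exact permutation (scipy 1.17.1). Alternatives are in the closing section, with DESeq2 1.42.0, limma 3.58.1 for the correlation within mice and leaving out each of 13 mice. Mice pair the CD26 classes: in all 12 mice with both, deviations from group means correlated (r = 0.237 to 0.668). In the 143 pairs of libraries compared, those within a model and CD26 class, none agreed within sampling noise. The members and lists were chosen with earlier results of these data known. Named genes were all members, the targets Dpp4 and En1, and in each list and comparison up to 3 called genes of at least 10 CPM with the largest change; P4ha3 to Ccn2 were picked from these after their values were seen, as were Dcn, Col2a1, Matn1 and Bglap.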

Additional observations from a re-analysis of the deposited data

Results flagged for a closer look

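Of 60 groups of 4 or 5 mice checked for a mouse far from the rest, 3 held one, and chance alone marks about 1 in 20 groups. Among CD26- WB1P CAFs, Col5a3 was lowest in mouse 7, at 1658.1 CPM, where the other 4 mice lay between 2285 and 2460 CPM. Among CD26- WB1P-Myc CAFs, Col11a1 was highest in mouse 12, at 1057 CPM, where the next mouse was at 322 CPM. Among CD26- WB1P CAFs, the ratio of Col3a1 to Col1a1 counts was highest in mouse 5, at 0.7792, against 0.684 to 0.696 in the others. The cause was not tested for any of them.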

How the results depend on the processing

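No member's called difference changed direction under any alternative run. The rises of Col1a1, Col5a1, Col11a1 and Col24a1 in CD26- WB1P CAFs, of Col24a1 in CD26+ CAFs of both models, and the fall of Col27a1 in CD26+ WB1P-Myc CAFs stayed past the threshold in all 23 alternatives run on each, apart from the study's limit on fold change. With that limit (FDR under 0.05 and a log2 fold change beyond 2) the number of members called was 2 in CD26- WB1P against control and 1 in CD26- WB1P-Myc, CD26+ WB1P, CD26+ WB1P-Myc and both tumor comparisons of CD26 classes, since the limit drops smaller changes. Of 16601 genes it left 1100 higher and 808 lower in CD26- WB1P, and 1140 and 626 in CD26- WB1P-Myc. In CD26+ cells it left 747 and 556 in WB1P, and 631 and 600 in WB1P-Myc. Between classes it left 480 and 785 in WB1P, and 306 and 783 in WB1P-Myc. With single libraries, which treat libraries of 1 mouse as separate, it was 6 in CD26- WB1P-Myc, 8 in CD26+ WB1P, 9 in CD26+ WB1P-Myc, 3 between the models in CD26- cells, 5 between classes in WB1P, and 2 and 1 for the class effects of WB1P and WB1P-Myc against control. With the mouse as a replicate block the number of members was 7 in CD26+ WB1P, 5 between classes in WB1P and 1 for the class effect of WB1P-Myc against control, and DESeq2 gave 7 in CD26+ WB1P and 1 for that class effect. The block called 2646 genes higher and 2608 lower of 16601 in CD26+ WB1P. Between classes in WB1P it called 2863 and 2970, against 2162 and 2150 without it. DESeq2 called 3105 higher and 2995 lower of 18853 in CD26+ WB1P. Without a filter on low counts the number of members was 3 in CD26+ WB1P-Myc, 1 between classes in WB1P-Myc and 1 for the class effect of WB1P-Myc against control. There 2404 genes were higher and 2359 lower of 31865 in CD26+ WB1P-Myc, and 1220 and 1637 between classes in WB1P-Myc. Fitting only the groups compared gave 1 member in CD26+ WB1P, 2 in CD26+ WB1P-Myc, 0 between classes in control and 1 between classes in WB1P-Myc. Of all genes it called 1488 higher and 1346 lower of 14813 in CD26+ WB1P, and 2538 and 2674 of 14638 in CD26+ WB1P-Myc. Between classes it called 144 and 58 of 14844 in control, and 1330 and 1410 of 14135 in WB1P-Myc. Without mice 12 and 13 the number of members was 1 in CD26- WB1P-Myc, 3 in CD26+ WB1P-Myc and 0 between classes in WB1P-Myc. Of 16451 genes 2349 were then higher and 1899 lower in CD26- WB1P-Myc, 2171 and 2084 in CD26+ WB1P-Myc, and 898 and 1118 between classes. Libraries outside the En1 lineage gave 1 member between classes in WB1P, 1 in WB1P-Myc and 1 for the class effect of WB1P-Myc against control, and En1-lineage libraries 1 between classes in WB1P-Myc. Between classes, libraries outside the lineage called 1251 genes higher and 1205 lower of 14991 in WB1P, and 1293 and 1350 in WB1P-Myc. En1-lineage libraries called 722 and 1104 of 14785 between classes in WB1P-Myc. The cause of these shifts was not tested where none is named.

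Leaving out 1 mouse at a time gave 4 to 6 called members in CD26- WB1P, 0 to 4 in CD26- WB1P-Myc, 2 to 7 in CD26+ WB1P, 3 to 5 in CD26+ WB1P-Myc, 0 to 1 between classes in control, 0 to 3 in WB1P and 0 to 3 in WB1P-Myc, and 0 to 1 for the class effect of WB1P-Myc against control. The calls over all genes moved as well. In CD26+ WB1P, 1835 genes were higher and 1623 lower of 17011 without mouse 3. Without mouse 5 the numbers were 2986 and 3077 of 16522. The share of all counts ranged over 5.169% to 6.151% and 4.409% to 5.928% in CD26- and CD26+ controls, 7.222% to 7.574% and 7.203% to 7.458% in WB1P, and 6.165% to 6.823% and 6.635% to 7.680% in WB1P-Myc. Without Col1a1, Col1a2 and Col3a1 the share was 1.027% and 1.004% in CD26- and CD26+ controls, 1.541% and 1.106% in WB1P, and 1.211% and 1.081% in WB1P-Myc. With WB1P alone and WB1P-Myc alone the log2 difference of Col1a2 to Col1a1 from control was -0.2355 and -0.2295 in CD26- and -0.264 and -0.2222 in CD26+ cells, that of Col3a1 to Col1a1 was -1.005 and -0.5831, and -0.4208 and -0.3902, and that of Col5a3 to Col5a1 was -1.181 and -0.9153, and -1.273 and -1.187. Between classes Col3a1 to Col1a1 gave 0.8852 and 0.5043 and Col5a3 to Col5a1 gave -0.2846 and -0.4881. These smaller designs cannot reach a low adjusted p. Leaving out 1 mouse, the ratios ranged from -0.2625 to -0.1827 and -0.2706 to -0.1859 for Col1a2 to Col1a1, from -0.8466 to -0.7457 and -0.4581 to -0.3358 for Col3a1 to Col1a1, from -1.139 to -0.9101 and -1.347 to -1.126 for Col5a3 to Col5a1, and from -0.4446 to -0.1535 and -0.2382 to 0.3156 for Col5a2 to Col5a1 in CD26- and CD26+ cells, with an adjusted p of 0.0545 for the first 3 when control mouse 1 or 3 was left out. Between classes they ranged from 0.6394 to 0.7399 for Col3a1 to Col1a1 and from -0.4484 to -0.3182 for Col5a3 to Col5a1.

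With 3 control mice, 1 of them low in most members, changes of about the size of Col1a2's lie at the limit of these tests. Col24a1, Col11a1 and Col11a2 rest on as few as 7, 17 and 58 counts in a sum, the first 2 in CD26+ cells of control mouse 2.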
